A study of Mus musculus with 16 samples.

Results

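The 28 genes described here are very long genes of the kind found at common fragile sites: Fhit, Wwox, Ctnna3, Lrp1b, Macrod2, Dmd, Csmd1, Csmd3, Cntnap2, Ctnna2, Nrxn3, Dlg2, Magi2, Immp2l, Auts2, Cdh13, Lsamp, Opcml, Ptprd, Pcdh15, Nrg1, Nrg3, Sgcz, Erbb4, Dab1, Cntn5, Naaladl2 and Exoc4. They were chosen by name from the 21938 protein-coding genes that GENCODE M21 places on mouse chromosomes 1 to 19, X and Y. The list of names uses no measured value, but it was chosen with earlier results of these data known. Their annotated bodies ran from 725 kb (Exoc4) to 2271 kb (Ptprd), with a median of 1295 kb, and with 5 kb added on each side they covered 41.0 Mb of the mm10 genome. A peak was counted for a gene when it shared at least 1 bp with that window.

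Single-strand breaks were mapped by SSB-seq, in which E. coli DNA polymerase I builds digoxigenin-tagged nucleotides in at nicks and an antibody then enriches the tagged fragments over unselected input DNA. The material was genomic DNA of mouse embryonic stem (ES) cells of strain C57BL/6JRj in serum-free 2i medium with LIF. WT is the genotype labelled wild type, and Tdg KO is the genotype labelled KO and Tdg-depleted, in which 4-hydroxytamoxifen (4-OHT, 5 µM for 2 h) excises a Tdg minigene. TDG is a DNA glycosylase that removes oxidised 5-methylcytosines, and the growth protocol with 4-OHT is worded alike for every group. Each genotype received DMSO or 5 nM talazoparib, a PARP inhibitor, for 24 h, and the labels used here do not say how long DMSO was present. Every one of these 4 conditions had 3 immunoprecipitated (IP) libraries and 1 input library. The labels do not say whether the genotypes are single clones or whether the IP libraries came from separate cultures.

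A single pooled peak list per condition was analysed, with no value per library. The spread between replicates is therefore unknown, nothing below is a test between conditions, and all intervals cover counting error only. WT and Tdg KO libraries ran on different flow cells, so genotype and sequencing run cannot be told apart. The lists held 28539 (WT DMSO), 15526 (WT talazoparib), 35445 (Tdg KO DMSO) and 23946 (Tdg KO talazoparib) peaks, from 66.4 to 87.0 M IP tags and 24.5 to 38.1 M input tags. Peak lists do not measure expression. Of 6 ES cell marker genes, 5 or 6 had a peak in each list, but so did 4 of 5 extraembryonic endoderm genes and 2 of 4 fibroblast genes, so the peaks do not check the labelled cell type.

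Common fragile sites are chromosomal regions that form gaps and breaks on metaphase chromosomes when replication is slowed. Many of them coincide with very long genes whose DNA replicates late in S phase and holds few replication origins, and which sites are fragile depends on the cell type. Most of the genes below are best known from neurons, muscle or tumour deletions. Replication timing and metaphase breakage were not measured in this series, so late replication and fragility are background here, not results.

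Peaks at gene starts, in introns and in intronic CA repeats are shown by examples, since later results turn on their sequence. They are printed in mm10 coordinates, 5′ to 3′ on the gene's own strand, with annotated exons left out. The first pair lies just upstream of gene starts, on the plus strand, in peaks found in all 4 lists: Macrod2 (chr2:140394942-140395241) and Ctnna3 (chr10:63429666-63429965). The next pair is from introns, Cdh13 739 kb into the gene (chr8:119022283-119022582, plus strand) and Lrp1b 1743 kb into the gene (chr2:40910839-40911138, minus strand), each found in both Tdg KO lists and in neither WT list. In these 4 sequences capitals mark every CG dinucleotide. The last 3 are introns with CA repeats: Fhit 57.4 kb from the start (chr14:11104467-11104766, minus strand) and Cdh13 1026 kb from it (chr8:119309427-119309726, plus strand), both in the 2 talazoparib lists, and Auts2 543 kb from it (chr5:132000607-132000906, minus strand), in the 2 WT lists. There capitals mark each unbroken run of at least 6 CA units or, on the other strand, TG units.
Macrod2 gene start: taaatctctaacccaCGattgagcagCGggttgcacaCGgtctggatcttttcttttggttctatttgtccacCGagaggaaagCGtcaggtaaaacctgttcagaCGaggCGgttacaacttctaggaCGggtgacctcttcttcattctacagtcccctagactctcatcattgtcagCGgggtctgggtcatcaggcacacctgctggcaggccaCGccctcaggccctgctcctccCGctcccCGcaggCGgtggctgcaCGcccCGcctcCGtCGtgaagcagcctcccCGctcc
Ctnna3 gene start: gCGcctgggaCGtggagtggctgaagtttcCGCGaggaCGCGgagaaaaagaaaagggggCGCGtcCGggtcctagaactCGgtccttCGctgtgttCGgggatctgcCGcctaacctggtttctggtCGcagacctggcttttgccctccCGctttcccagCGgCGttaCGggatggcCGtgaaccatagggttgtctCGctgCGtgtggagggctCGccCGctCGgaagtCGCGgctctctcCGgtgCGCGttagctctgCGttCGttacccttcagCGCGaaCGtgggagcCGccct
Cdh13 intron: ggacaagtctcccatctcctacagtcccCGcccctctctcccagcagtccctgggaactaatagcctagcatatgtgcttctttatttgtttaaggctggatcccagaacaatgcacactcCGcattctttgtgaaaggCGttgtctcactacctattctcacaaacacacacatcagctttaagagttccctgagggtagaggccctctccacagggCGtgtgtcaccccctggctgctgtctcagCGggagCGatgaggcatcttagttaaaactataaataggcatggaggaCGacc
Lrp1b intron: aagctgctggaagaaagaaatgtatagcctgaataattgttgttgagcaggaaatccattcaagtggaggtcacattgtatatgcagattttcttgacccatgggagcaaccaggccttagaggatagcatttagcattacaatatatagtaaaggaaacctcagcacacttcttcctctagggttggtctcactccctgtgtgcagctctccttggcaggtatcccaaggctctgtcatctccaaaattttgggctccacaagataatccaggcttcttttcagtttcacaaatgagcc
Fhit CA-repeat intron: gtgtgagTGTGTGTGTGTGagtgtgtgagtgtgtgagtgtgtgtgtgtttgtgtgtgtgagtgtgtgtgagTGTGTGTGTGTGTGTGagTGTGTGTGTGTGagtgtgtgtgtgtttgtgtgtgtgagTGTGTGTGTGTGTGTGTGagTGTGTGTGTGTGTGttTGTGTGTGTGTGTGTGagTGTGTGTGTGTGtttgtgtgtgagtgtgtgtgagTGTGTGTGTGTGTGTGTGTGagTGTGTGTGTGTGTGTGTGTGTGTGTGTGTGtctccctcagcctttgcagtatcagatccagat
Cdh13 CA-repeat intron: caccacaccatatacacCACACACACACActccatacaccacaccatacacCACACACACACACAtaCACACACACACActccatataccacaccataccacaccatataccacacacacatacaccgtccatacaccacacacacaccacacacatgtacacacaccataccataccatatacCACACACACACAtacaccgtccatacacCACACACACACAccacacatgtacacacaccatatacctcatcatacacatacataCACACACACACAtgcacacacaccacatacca
Auts2 CA-repeat intron: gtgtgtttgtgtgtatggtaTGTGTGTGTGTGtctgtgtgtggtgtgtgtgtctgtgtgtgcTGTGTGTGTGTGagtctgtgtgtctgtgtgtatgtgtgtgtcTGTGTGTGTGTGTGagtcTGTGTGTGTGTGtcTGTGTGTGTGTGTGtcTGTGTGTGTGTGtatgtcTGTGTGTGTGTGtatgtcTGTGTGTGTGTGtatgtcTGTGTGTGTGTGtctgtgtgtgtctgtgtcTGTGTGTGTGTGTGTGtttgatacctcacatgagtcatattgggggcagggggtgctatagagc
The Macrod2 and Ctnna3 start sequences hold 18 and 35 CG dinucleotides in 300 bases each, and the Cdh13 and Lrp1b intron sequences hold 7 and 0 in 300. The repeat runs take up 150, 74 and 128 of the 300 bases in Fhit, Cdh13 and Auts2.

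Break peaks were sparse in the 28 genes. The windows held 42 peaks in WT DMSO, 35 in WT talazoparib, 66 in Tdg KO DMSO and 50 in Tdg KO talazoparib. That is 1.02 peaks per Mb in WT DMSO (exact Poisson 95% interval 0.738 to 1.38), 0.853 (0.594 to 1.19) in WT talazoparib, 1.61 (1.24 to 2.05) in Tdg KO DMSO and 1.22 (0.905 to 1.61) in Tdg KO talazoparib. The genome as a whole held 10.8, 5.86, 13.4 and 9.04 peaks per Mb in the same order, which is 10.5, 6.87, 8.32 and 7.42 times the density in these genes. Another 202 protein-coding genes of at least 500 kb held 4.54, 2.65, 6.06 and 3.76 peaks per Mb. Between the groups the intervals did not overlap in any list, but the summed density of the other long genes leans on a few loci such as Gm20388, a gene model of 4435 kb with 42.3 peaks per Mb in WT DMSO. Over the 196 genes left without the loci named only by Gm numbers it was 3.14, 1.98, 4.32 and 2.62 per Mb. The median gene showed a smaller gap: 0.890, 0.621, 0.959 and 0.897 peaks per Mb for the 28 genes against 1.68, 1.41, 2.04 and 1.66 for the other long genes.

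**Figure D1:**
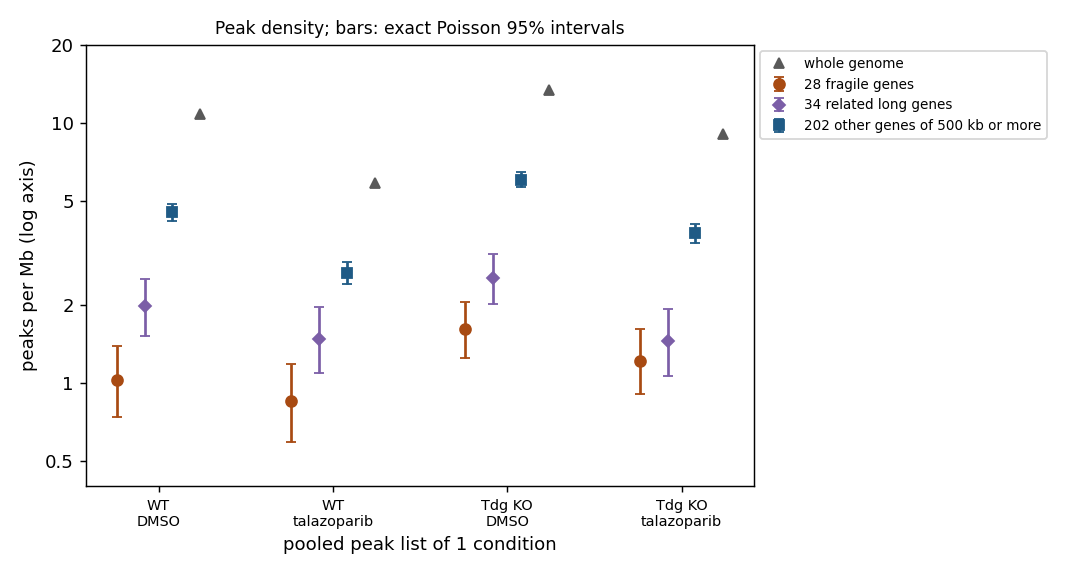
Peaks per Mb (log axis) in each of the 4 pooled lists for the 28 fragile genes, 34 related long genes, 202 other protein-coding genes of at least 500 kb, and the whole genome, with exact Poisson 95% intervals of counting error. The fragile genes lie lowest in every list, between 0.853 and 1.61, and their interval overlaps that of the related long genes except in WT DMSO.

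Because the windows are so long, most of the genes still had a peak. At least 1 peak was found in 21 of 28 genes in WT DMSO, where 60.9% of all protein-coding genes and 68.8% of the other long genes had one. In WT talazoparib 16 had one (48.8% and 62.4%), in Tdg KO DMSO 23 (66.8% and 77.2%) and in Tdg KO talazoparib 20 (58.9% and 65.8%). The members' shares of 75%, 57.1%, 82.1% and 71.4% were thus near those of the other long genes, and the sparseness shows in peaks per Mb, not in how many genes carry a peak. The genes took 0.147% (Wilson 95% interval 0.109% to 0.199%), 0.225% (0.162% to 0.313%), 0.186% (0.146% to 0.237%) and 0.209% (0.158% to 0.275%) of the peaks in WT DMSO, WT talazoparib, Tdg KO DMSO and Tdg KO talazoparib. These 4 intervals overlap one another.

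Across the lists 12 genes had a peak in all 4, 6 in 3, 6 in 2, 2 in 1, and Sgcz and Csmd3 in none. Such a count over other genes is not given here, so these numbers are not shown to be particular to the 28. Sgcz, the zeta-sarcoglycan of the dystrophin complex, and Csmd3, a membrane protein with CUB and sushi domains, span 1139 kb and 1211 kb. Peaks were concentrated in Auts2 and Cdh13, which together held 11 of 42, 10 of 35, 17 of 66 and 16 of 50 peaks. Without this pair the density of the remaining genes was 0.798, 0.644, 1.26 and 0.875 per Mb. Ranked by peaks per Mb summed over the lists, Auts2 came 30th and Cdh13 33rd of 230 genes of at least 500 kb, followed by Immp2l at 71 and Dab1 at 74, with the others between 79 (Nrg1) and 209 (Sgcz and Csmd3). The count of peaks over all lists did not follow gene length across the 28 genes (Pearson r = -0.196, Spearman rho = -0.107). It was higher in genes richer in CG dinucleotides (r = 0.694, rho = 0.715 with CpG per 100 bp) and in GC (r = 0.714, rho = 0.610). Over the 26 genes without Auts2 and Cdh13 these were r = 0.511, rho = 0.654 and r = 0.518, rho = 0.518. These are descriptions across genes that share the same 4 lists, and genes are not independent replicates.

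**Figure D2:**
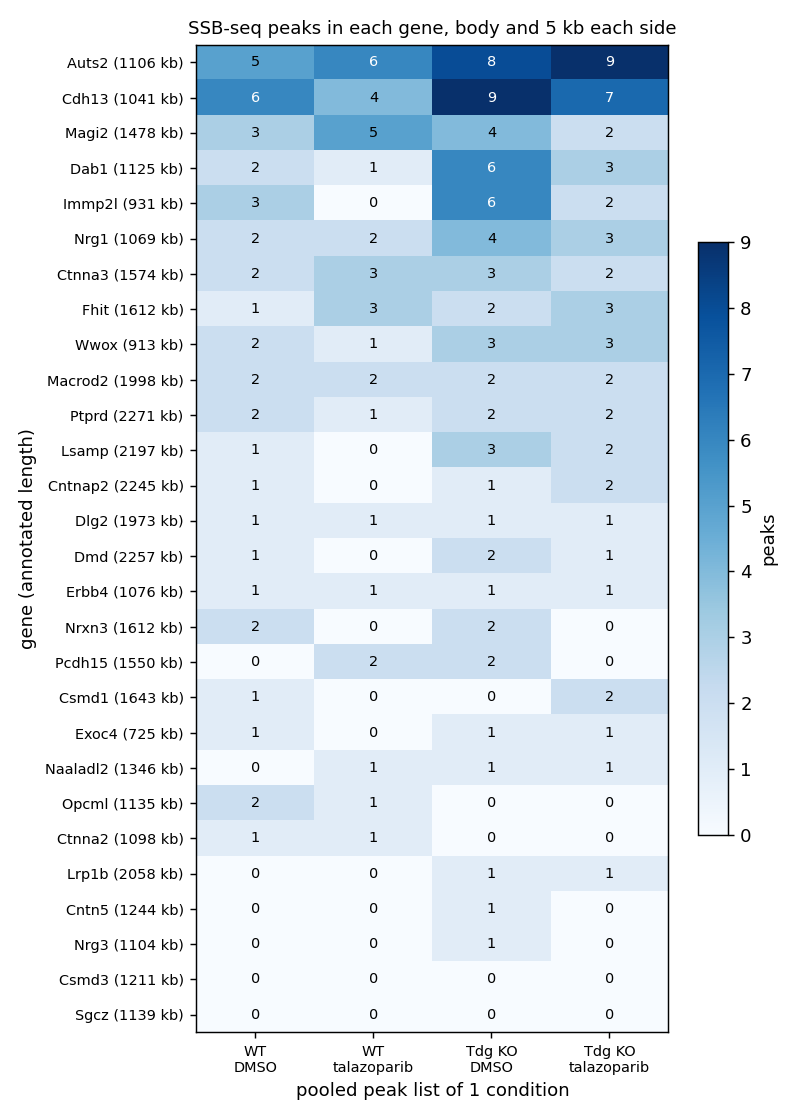
Number of peaks in each of the 28 genes (rows, with annotated length) in each pooled list (columns); darker blue stands for more peaks. Auts2 and Cdh13 hold 4 to 9 peaks in every list, 12 genes have a peak in all 4 columns, and Csmd3 and Sgcz have none.

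Among the genes best known from fragile sites and tumour deletions, peaks were few, and recurrent ones lay both at gene starts and inside the genes. This group of 7 (Fhit, Wwox, Lrp1b, Csmd1, Csmd3, Naaladl2 and Macrod2) held 6, 7, 9 and 12 peaks in WT DMSO, WT talazoparib, Tdg KO DMSO and Tdg KO talazoparib, or 0.553, 0.645, 0.829 and 1.11 per Mb. Macrod2 encodes a hydrolase that removes ADP-ribose from proteins, the modification PARP enzymes write, and lies on chromosome 2 at 140395309 to 142392966. It had the same 2 regions in every list, at its start and 276 kb inside. The start peak had Normalized Tag Counts (IP tags in the peak per 10000000 tags) of 32.9 in WT DMSO, 23.1 in WT talazoparib, 44.5 in Tdg KO DMSO and 24.8 in Tdg KO talazoparib. By this count it was the strongest member peak in WT DMSO, WT talazoparib and Tdg KO DMSO. The count is not divided by peak width, here and for the genes below. The Macrod2 start peak was 1050, 1416, 1840 and 760 bp wide in the same order of lists. Its IP tag density relative to the genome mean was 8.30, 4.32, 6.40 and 8.64. The inner region, at 4.71, 2.68, 6.36 and 8.13, lies in a Macrod2 intron but within 1 kb of the start of Flrt3, a separate adhesion gene nested in Macrod2, so its signal cannot be assigned to Macrod2. The rest of the 1998 kb gene held no peak in any list.

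Wwox, an oxidoreductase-like protein with WW domains encoded at the human fragile site FRA16D, lies on chromosome 8 at 114439655 to 115352708. Its start peak measured 14.9, 11, 21 and 20.7 Normalized Tag Counts in WT DMSO, WT talazoparib, Tdg KO DMSO and Tdg KO talazoparib. Away from the start it had 1, 0, 2 and 2 peaks of 2.93 to 4.06, each found in a single list. Fhit, a diadenosine polyphosphate hydrolase and the gene of the fragile site FRA3B, lies on chromosome 14 at 9550092 to 11162035, and its pattern differed. Its start peak was weak and present with DMSO only, at 3.85 in WT and 6.36 in Tdg KO. With talazoparib it had 3 peaks in each genotype, all away from the start, of which those at 57.4 and 1596 kb were shared by the 2 genotypes. The Tdg KO talazoparib peak at 122 kb (4.29) shared its region with a Tdg KO DMSO peak (4.27), so body peaks were not limited to talazoparib. All Fhit peaks rest on 0.5 to 3.5 input tags. The 1596 kb peak measured 5.73 in WT and 7.15 in Tdg KO. Lrp1b, a giant LDL receptor family protein, had a single region, at 5.42 in Tdg KO DMSO and 3.39 in Tdg KO talazoparib. Csmd1, a complement regulator, had 1 intronic peak in WT DMSO (4.2) and 2 start peaks in Tdg KO talazoparib (3.69 and 4.29), with none in the other lists. Naaladl2 had a start peak in both Tdg KO lists (5.13 with DMSO and 4.97 with talazoparib) and an intronic one in WT talazoparib (2.80).

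The 10 genes of neural adhesion and synapse held 17, 12, 23 and 15 peaks, or 1.06, 0.747, 1.43 and 0.934 per Mb, with the most in Cdh13. Cdh13, the GPI-anchored T-cadherin on chromosome 8 at 118283733 to 119324921, had 6, 4, 9 and 7 peaks but none within 5 kb of its start in any list. They were spread over 21 regions, none of them in all 4 lists, with Normalized Tag Counts of 2.87 to 7.83. Ctnna3, the alpha-T-catenin of chromosome 10 at 63430098 to 65003667, had the reverse pattern. Its start peak measured 11 in WT DMSO, 20.9 in WT talazoparib, 26.2 in Tdg KO DMSO and 36.8 in Tdg KO talazoparib. The last was, by this count, the strongest member peak of that list. The start peak was 500, 1008, 1154 and 1306 bp wide. Its IP tag density relative to the genome mean was 5.82, 5.49, 6.01 and 7.46. The 6 other regions of Ctnna3, each in 1 list, measured 2.98 to 5.93. Ptprd, a receptor tyrosine phosphatase on chromosome 4 at 75941238 to 78211961, had 2, 1, 2 and 2 peaks of 2.98 to 4.52 and none at its start. Ctnna2, the alpha-N-catenin, had its single region at the start in both WT lists (4.25 with DMSO and 6.14 with talazoparib) and in neither Tdg KO list. Opcml, a cell adhesion protein of the IgLON family, likewise had 3 intronic regions in the WT lists only (3.04 to 3.56). Peaks that weak are rarer in the Tdg KO lists, whose lower quartiles were 4.48 (DMSO) and 4.67 (talazoparib) against 3.39 and 3.16 in WT. The absence of Opcml peaks there can therefore not be read as a genotype difference. Lsamp, of the same IgLON family, had 1, 0, 3 and 2 peaks (4.05 to 8.13). Cntnap2, a neurexin-like adhesion protein, had 1, 0, 1 and 2 peaks (3.97 to 6.40), all 2129 to 2131 kb from its start. Nrxn3, a presynaptic neurexin, had peaks with DMSO only, 2 in each genotype, of which the one 1089 kb from the start is at another annotated start and measured 13.0 in WT and 19.2 in Tdg KO. Pcdh15, a protocadherin of the hair cell tip link, had 2 start peaks in WT talazoparib (3.10 and 9.19) and 2 in Tdg KO DMSO (4.99 and 4.05). Cntn5, a contactin, had 1 peak, in Tdg KO DMSO (4.48).

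Among the scaffold and dystrophin-complex genes (Dlg2, Magi2, Dmd and Sgcz), with 5, 6, 7 and 4 peaks, the 3 regions found in all 4 lists lay at annotated starts. Dlg2, a postsynaptic density scaffold on chromosome 7 at 90476672 to 92449247, had 1 peak per list and all were at its start, with Normalized Tag Counts of 12.7, 8.77, 22.6 and 23.0 in WT DMSO, WT talazoparib, Tdg KO DMSO and Tdg KO talazoparib. That start is shared with Tmem126b, a mitochondrial assembly factor gene that begins within 1 kb of the peak, so the 2 promoters cannot be told apart. The remaining body of Dlg2 had no peak. Magi2, a membrane-associated guanylate kinase scaffold on chromosome 5 at 19227036 to 20704792, had 3, 5, 4 and 2 peaks. Its start region measured 6.61, 3.22, 15.2 and 11.1, and a region 1475 kb away, at another annotated start near the end of the gene, measured 12.1, 4.83, 17.6 and 16.5. In both regions the WT talazoparib value was the lowest. A body region 1450 kb from the start was found in both DMSO lists, at 3.16 in WT and 4.99 in Tdg KO. Dmd, the dystrophin gene on the X chromosome, had 1, 0, 2 and 1 peaks of 2.99 to 5.57, and the region seen in both Tdg KO lists lies at an internal start 2099 kb into the gene.

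The genes of neuregulin and reelin signalling held 5, 4, 12 and 7 peaks in 4.41 Mb. Nrg1, an EGF-family ligand on chromosome 8 at 31814551 to 32884029, had 2, 2, 4 and 3 peaks. Its most recurrent region was not the annotated gene start but an internal start 875 kb downstream, with Normalized Tag Counts of 6.15 in WT DMSO, 6.14 in WT talazoparib, 29.4 in Tdg KO DMSO and 17.5 in Tdg KO talazoparib. Both Tdg KO values were higher than both WT values there, but from wider peaks (1730 and 962 bp against 500 bp). Relative to the genome mean, IP tag density in these peaks was 3.26, 3.25, 4.50 and 4.82, a smaller gap, and the WT peaks do not overlap each other. Its receptor Erbb4, on chromosome 1 at 68032186 to 69108059, had 1 peak per list, all within 5 kb of the start but at 3 places, measuring 7.01, 2.92, 11.6 and 5.34. Nrg3, a further ligand, had 1 start peak, in Tdg KO DMSO (6.80). Dab1, the adaptor of the reelin pathway on chromosome 4 at 103619359 to 104744844, had 2, 1, 6 and 3 peaks. Its region at an internal start 748 kb from the gene start measured 9.02 in WT DMSO, 8.75 in Tdg KO DMSO and 6.40 in Tdg KO talazoparib, with no peak in WT talazoparib. A neighbouring region 749 kb from the start measured 12.8 in Tdg KO DMSO and 7.98 in Tdg KO talazoparib, with no peak in either WT list.

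Auts2, Immp2l and Exoc4 made up the densest group, at 3.22, 2.15, 5.37 and 4.30 peaks per Mb, and Auts2 held most of it. Auts2, a neurodevelopmental gene whose protein takes part in a Polycomb complex, lies on chromosome 5 at 131437333 to 132543344. It had 5, 6, 8 and 9 peaks. Its start peak measured 15.9 in WT DMSO, 20.0 in WT talazoparib, 19.3 in Tdg KO DMSO and 27.5 in Tdg KO talazoparib. Most of its other peaks lay far downstream, between 967 and 1094 kb from the start. At an internal start 1005 kb away the signal was 18.3 in WT talazoparib and 26.5 in Tdg KO DMSO, with a pair of peaks of 7.98 and 8.66 in Tdg KO talazoparib and none in WT DMSO. Further on lay an intronic peak of 23.6 over 2346 bp in Tdg KO DMSO, the strongest member peak away from any start. Immp2l, a subunit of the inner mitochondrial membrane peptidase, had 3, 0, 6 and 2 peaks, and its start peak measured 7.70 in WT DMSO, 12.7 in Tdg KO DMSO and 14.2 in Tdg KO talazoparib. Exoc4, an exocyst subunit, had its start peak in the same 3 lists, at 3.22, 7.59 and 10.1.

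Peaks were packed at gene starts and thin over the bodies. Within 5 kb of the annotated gene start lay 12, 10, 17 and 13 peaks in WT DMSO, WT talazoparib, Tdg KO DMSO and Tdg KO talazoparib, in 12, 9, 15 and 12 of the 28 genes. That is 42.9%, 32.1%, 53.6% and 42.9% of the genes. A start peak was found in 50.1%, 38.3%, 58.5% and 48.1% of all protein-coding genes. Of the other long genes 36.6%, 27.2%, 48.5% and 33.2% had one. The start peaks were 28.6% (Wilson 95% interval 17.2% to 43.6%), 28.6% (16.3% to 45.1%), 25.8% (16.7% to 37.4%) and 26.0% (15.9% to 39.6%) of the member peaks. Per Mb of start window there were 42.9, 35.7, 60.7 and 46.4 peaks, and per Mb of the rest 0.737, 0.614, 1.2 and 0.908. The other long genes had nearly the same density at their starts, 40.1, 29.2, 53.0 and 36.6 per Mb, but 4.08, 2.32, 5.46 and 3.34 over the rest. Without the loci named only by Gm numbers the rest held 2.65, 1.64, 3.69 and 2.17 per Mb, a smaller gap. In the 34 related long genes the rest held 1.68, 1.12, 1.99 and 1.06 per Mb, closer still. Over all protein-coding genes the start density was 63.7, 43.6, 78.3 and 58.7 per Mb. Against the other long genes, the lower density of the fragile genes thus lay in their bodies and not at their starts. Another 6, 4, 9 and 9 peaks lay within 5 kb of another annotated start of the same gene, which leaves 24, 21, 40 and 28 body peaks. Of these body peaks 8, 7, 16 and 17 were in the last 25% of the gene's length. Without Auts2 and Cdh13 these were 5 of 15, 3 of 13, 12 of 26 and 6 of 15. An annotated exon was touched by 13, 10, 20 and 15 of the member peaks, and all others lay in introns or flanks.

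**Figure D3:**
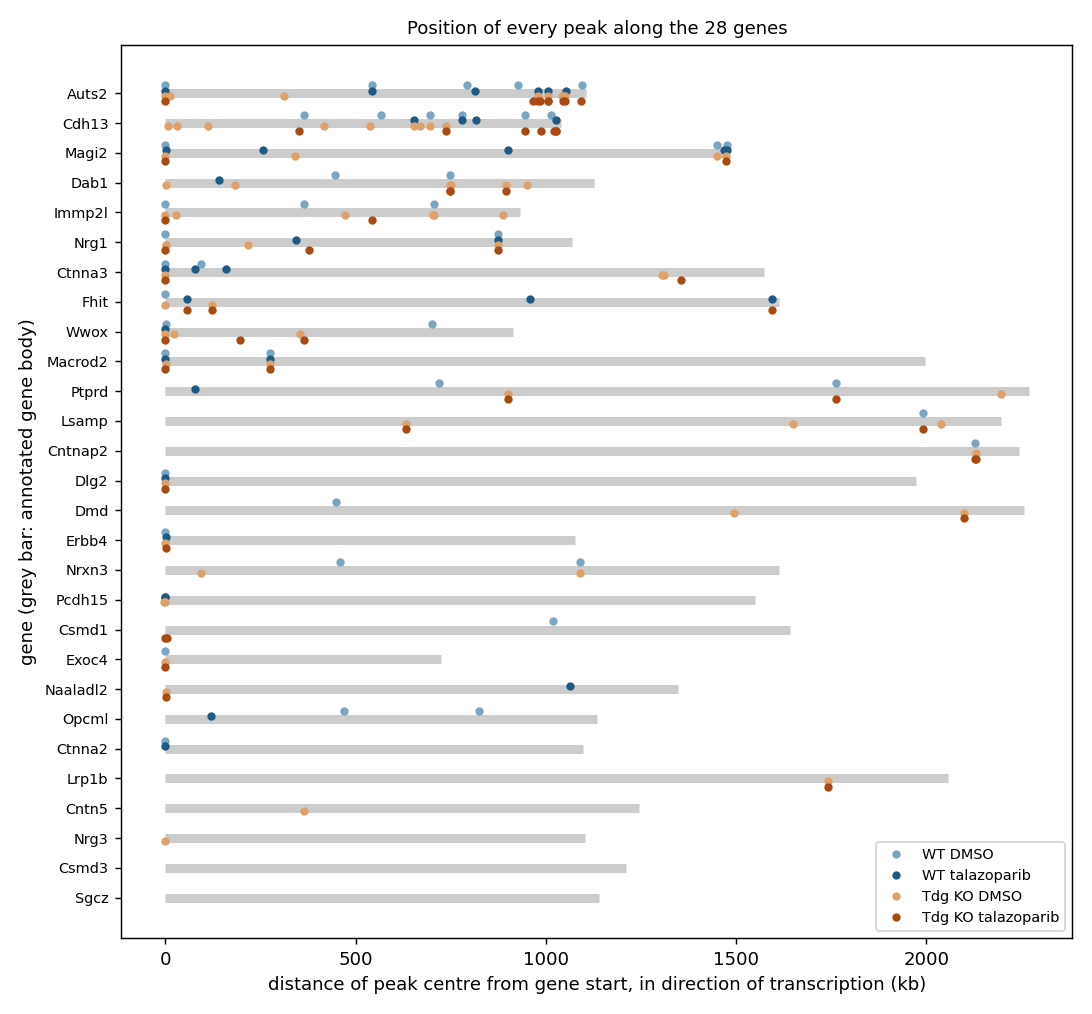
Distance of every peak's centre from the gene start (kb, in the direction of transcription) along the 28 genes; grey bars are gene bodies and colours are the 4 pooled lists. Columns of 4 dots mark regions found in all lists, mostly at distance 0, as in Macrod2, Dlg2 and Wwox. The 4 dots near the Erbb4 start are an exception, since they belong to 3 regions. Cdh13 has peaks along its length and none at its start.

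Few places were found again from list to list. When peaks of all lists that overlapped by 1 bp were joined, the 28 genes held 126 regions, of which 83 (65.9%) were in 1 list, 29 in 2, 5 in 3 and 9 (7.14%, Wilson 95% interval 3.80% to 13.0%) in all 4. Of all 60802 regions of the genome 61.6% were in 1 list and 9.47% in all 4. At gene starts 6 of 24 regions were in all 4 lists, and elsewhere 3 of 102. The same split was not made for all regions of the genome, so it is not shown to be particular to these genes. The 9 regions are the starts of Auts2, Ctnna3, Dlg2, Macrod2, Magi2 and Wwox, the internal starts of Magi2 and Nrg1, and the Flrt3 start inside Macrod2, so every one lies at an annotated start. In the Magi2 start and Nrg1 regions the WT lists' peaks do not touch each other and were joined through a Tdg KO peak. When an overlap of at least 50% of the shorter peak was asked for, 8 regions were left. With a fold over input of at least 6 none was left, and 5 with at least 3 input tags. The 12 genes with a peak in all 4 lists likewise became 2 at the fold of 6, 5 with at least 3 input tags, and 7 when each list was limited to the same number of best-scoring peaks or to peaks of at least 2 times the mean IP density.

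At these 9 regions the direction of the difference with talazoparib depended on the readout. By IP tag density of the peak, relative to the genome mean, it was in Tdg KO higher with talazoparib than with DMSO in 9 of 9 regions, with ratios of 1.04 to 1.46 and a median of 1.24. Of 5335 regions of the genome with 1 peak in each list 75.8% were above 1 in Tdg KO, with a median of 1.17. In WT it was higher with talazoparib in 2 of 9, the starts of Auts2 (3.85 against 2.9 times the genome mean) and Wwox (3.57 against 3.39), with a median of 0.854 and the lowest value at the Macrod2 start (0.521). Genome-wide 44.5% were above 1 in WT, with a median of 0.960. By Normalized Tag Count, which is not divided by the width of the peak, Tdg KO was higher with talazoparib in 4 of 9 (median ratio 0.986) and lower at the Macrod2, Magi2 and Wwox starts and the internal Magi2 and Nrg1 starts. All 5335 regions had a median of 0.996 there, with 49.1% above 1. In WT it was higher in 2 of 9, now Auts2 and Ctnna3, with a median of 0.702 against 0.831 for all regions (33.3% above 1). Peak borders were set separately in each list, and at the Magi2 start and in Nrg1 the WT ratios compare peaks that do not touch.

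The median signal of member peaks was below that of their lists and near that of the other long genes. The median Normalized Tag Count was 3.85, 3.70, 5.32 and 5.99 in WT DMSO, WT talazoparib, Tdg KO DMSO and Tdg KO talazoparib, against 4.83, 5.07, 6.87 and 7.45 for whole lists and 4.25, 4.18, 5.64 and 6.02 for the other long genes. At gene starts it was 7.36, 8.98, 7.59 and 11.1, and outside them 3.48, 3.52, 4.99 and 4.97. Peaks that rest on fewer than 3 input tags have an uncertain fold, and they were common: 19 of 42, 28 of 35, 41 of 66 and 19 of 50 member peaks, or 45.2%, 80.0%, 62.1% and 38.0%. In whole lists the shares were 30.9%, 60.7%, 46.5% and 30.0%, and in the other long genes 37.4%, 73.1%, 58.6% and 37.5%. At member gene starts 1 of 12, 6 of 10, 9 of 17 and 2 of 13 peaks were that thin, and outside them 18 of 30, 22 of 25, 32 of 49 and 17 of 37.

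**Figure D4:**
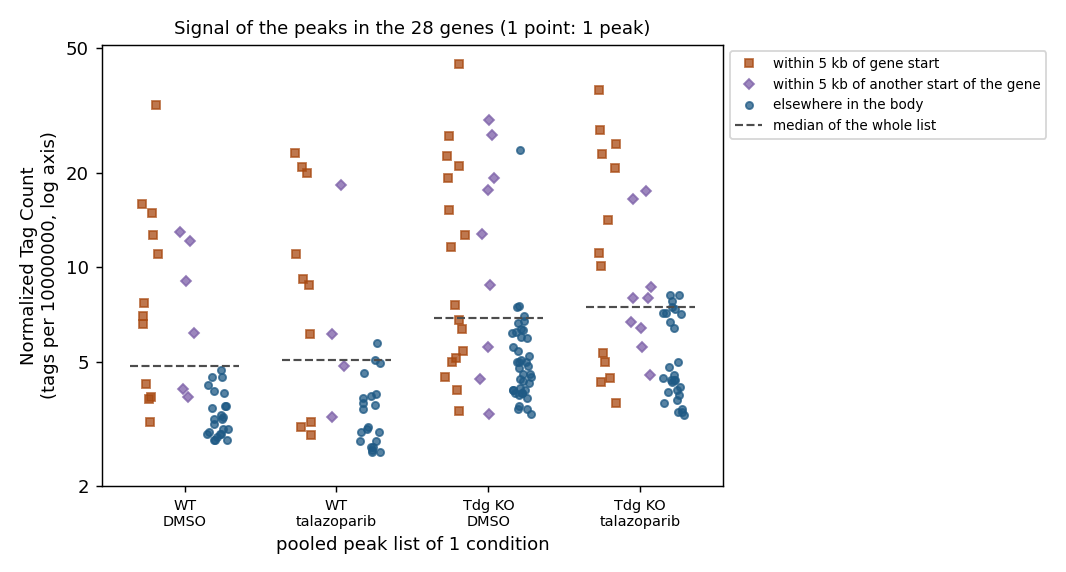
Normalized Tag Count (tags per 10000000, log axis) of each peak in the 28 genes by pooled list, split into gene starts, other annotated starts and the rest of the body; dashed lines are the medians of whole lists. Start peaks reach 23.1 to 44.5, and nearly all body peaks lie near or below the dashed line, the exception being the 23.6 peak of Auts2 in Tdg KO DMSO.

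The lists differed in length, and the difference of the members between treatments depended on the filter. With talazoparib the member peaks were 0.833 times those with DMSO in WT, where the whole list was 0.544 times, and 0.758 times in Tdg KO, where the list was 0.676 times. In WT 6 genes had more peaks with talazoparib, 12 fewer and 10 the same number, of which 5 had none in either. In Tdg KO the counts were 4, 12 and 12, of which 4 had none. Tdg KO had 1.57 times the member peaks of WT with DMSO (list 1.24) and 1.43 times with talazoparib (list 1.54). It had more peaks in 16 genes and fewer in 3 with DMSO, and 13 and 5 with talazoparib. Counts of genes with more or fewer peaks are not given here for other genes. Since the whole lists also differ in length, these counts are not shown to be particular to the member genes. With at least 3 input tags, peaks per Mb were 0.561 with DMSO and 0.171 with talazoparib in WT, and 0.610 and 0.756 in Tdg KO. With a fold of at least 6 they were 0.390 and 0.780 in WT, and 0.975 and 0.366 in Tdg KO, so each genotype turned direction under 1 of these filters. The order of the 4 lists depends on how many peaks are admitted. When every list was limited to its 15526 best-scoring peaks, the densities became 0.463 in WT DMSO, 0.853 in WT talazoparib, 0.512 in Tdg KO DMSO and 0.610 in Tdg KO talazoparib, so WT talazoparib went from lowest to highest.

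Gene-start and body peaks differed in base composition. The gene windows are poor in GC, with a median of 38.7% over the 28 genes (35.2% to 45.9%) against 40.1% for the other long genes, and hold 0.556 CG dinucleotides per 100 bp against 0.697. Gene-start peaks had median GC contents of 59.2%, 63.0%, 57.2% and 61.9% and 5.41, 6.68, 6.80 and 7.07 CG per 100 bp. The printed Macrod2 sequence lies in that range, and the printed Ctnna3 sequence is richer in CG. Body peaks had 47.3%, 45.2%, 47.0% and 48.9% GC and 0.900, 0.60, 1.16 and 1.17 CG per 100 bp. Even so 19 of 24, 17 of 21, 37 of 40 and 25 of 28 body peaks were richer in GC than their own gene, by a median of 5.92, 3.42, 5.25 and 6.52 percentage points. Peaks of the whole lists had median GC contents of 52.6%, 54.8%, 52.4% and 53.5%. Body peaks of other genes were not compared with their genes, so this is not shown to be particular to the 28.

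CA repeats set the lists apart. The repeat was searched as CACACACACACA or, on the other strand, TGTGTGTGTGTG (6 units, runs may overlap) in the central 300 bases of each peak. It was present in 6 of 42 member peaks in WT DMSO (14.3%, Wilson 95% interval 6.72% to 27.8%), 14 of 35 in WT talazoparib (40.0%, 25.6% to 56.4%), 0 of 66 in Tdg KO DMSO (0% to 5.50%) and 7 of 50 in Tdg KO talazoparib (14.0%, 6.95% to 26.2%). Among body peaks the shares were 25%, 47.6%, 0% and 21.4%. Of all 300-base windows of the genome 4.39% hold the repeat, and of those in the 28 gene windows 4.53%. The other long genes (10.0%, 24.4%, 2.52% and 7.75%) and the whole lists (5.19%, 10.9%, 2.24% and 3.94%) had the same order of lists, so the difference between lists is not particular to these genes.

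The 27 peaks with the repeat fell in 22 regions of 12 genes: Cdh13 (6 peaks), Fhit (5), Auts2 (3), Ctnna3, Lsamp, Nrg1 and Ptprd (2 each), and Csmd1, Dab1, Erbb4, Magi2 and Pcdh15 (1 each). Every talazoparib peak of Fhit but the one at 122 kb in Tdg KO held it, as in the printed Fhit sequence. In 17 of these regions the repeat was in a peak of 1 list, and in 5 in peaks of 2 lists. These peaks were thin: their median input was 2.75 tags in WT DMSO, 1 in WT talazoparib and 3 in Tdg KO talazoparib, and their median Normalized Tag Counts were 3.62, 3.67 and 4.52. With at least 3 input tags the shares were 13.0%, 28.6% (Wilson 95% interval 8.22% to 64.1%), 0% and 12.9%. In whole lists they were then 4.10%, 5.01%, 1.70% and 2.49%, with WT talazoparib near WT DMSO and near the 4.39% of genome windows. When the whole peak was searched the member shares were 14.3%, 45.7%, 3.03% and 18%. With at least 10 units they were 4.76%, 25.7%, 0% and 6.00%. WT talazoparib was highest and Tdg KO DMSO lowest under each of these searches, which were chosen after the data were seen.

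**Figure D5:**
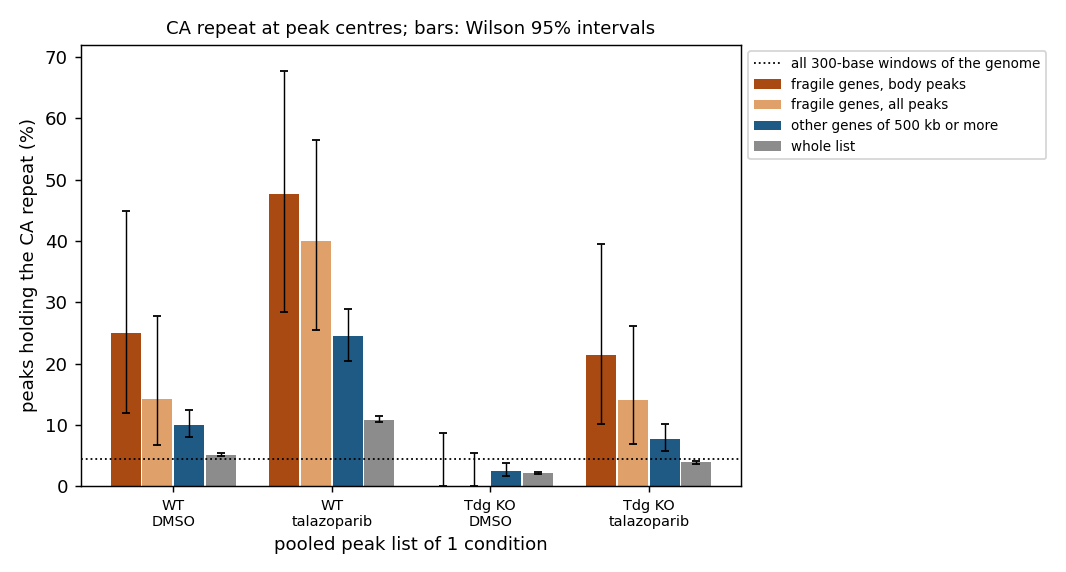
Share of peaks with the CA repeat in their central 300 bases (bars, with Wilson 95% intervals) by pooled list for body peaks and all peaks of the 28 genes, other long genes and the whole list; the dotted line is the share of all 300-base windows of the genome. The fragile genes reach 40.0% in WT talazoparib and 0% in Tdg KO DMSO, and the other sets follow the same order.

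A list of 34 related long genes, among them other fragile-site and neural genes, gave densities of 1.97, 1.48, 2.53 and 1.45 peaks per Mb. These lie between the 28 genes and the other long genes. Their intervals overlap those of the 28 genes in every list except WT DMSO, where 1.52 to 2.52 stands against 0.738 to 1.38. The widest overlap is in Tdg KO talazoparib, with 1.06 to 1.93 against 0.905 to 1.61. A peak was found in 23, 20, 23 and 20 of the 34. The genes with the most peaks were Dpp6, a potassium channel subunit gene (9, 7, 10 and 4), Tenm3, a teneurin adhesion gene (7, 3, 10 and 3), Sox5, a transcription factor gene (5, 3, 10 and 4), and Sdk1, a sidekick adhesion gene (7, 6, 4 and 3). The 3 densest of the other long genes were Gm20388, with 148 peaks per Mb summed over the lists, Gm42416 with 79.1 and Gm37388 with 76.1, against 25.1 in Auts2.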

How the data were processed

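The deposited peak tables, 1 per condition, have HOMER findPeaks columns per the file headers. HOMER 4.11, the genome build mm10, Picard 2.9.2, R 3.6 and the aligner Bowtie2 2.3.4.2 come from the submitters' processing notes. The sources used here do not say how IP libraries were pooled. The file headers name the Normalized Tag Count, which is the authors' scaled IP signal, and the input tags. The values themselves bear out a scale of 10000000 tags for the IP signal and steps of 0.5 for the input tags. A deposited column of another unit (other) gives IP tags after scaling to the input. The authors' fold is a ratio of IP to input tags and is at least 4.00 throughout. The deposited p-value was not used, and the authors' score only ranked peaks within a list.

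IP totals were worked out from the step of low tag counts, and IP density is tags per bp over the genome mean (2648 Mb sequenced). Python 3.11.15, pandas 2.3.3, scipy 1.17.1 and statsmodels 0.14.6 counted peaks in GENCODE M21 genes plus 5 kb. The counting was tested on simulated peaks. All 103456 peaks ended inside the reference chromosomes. Table starts are printed as given, and whether they count from 0 or 1 is not stated. The genes and lists were chosen with earlier results of these data known. All 28 genes are named, in full those with a peak in all 4 lists, as are the densest long genes and genes starting within 1 kb of a member peak. Alternatives changed the peak filter, window, start rule and list length.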

Additional observations from a re-analysis of the deposited data

Results flagged for a closer look

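Magi2 and Pcdh15 stood out because their peak counts changed with talazoparib by 2 or more in opposite directions in the 2 genotypes, out of 5 genes with any opposite change. Magi2 went from 3 to 5 peaks in WT and from 4 to 2 in Tdg KO, and Pcdh15 from 0 to 2 in WT and from 2 to 0 in Tdg KO. In each gene the Tdg KO change minus the WT change was -4 peaks. The difference was not tested, since each condition has 1 pooled list. The added WT talazoparib peaks rest on 0.5 to 2 input tags.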

How the results depend on the processing

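Of 229 values recomputed under other settings 179 stayed close to the reported value and 50 moved beyond its interval, or by over 1.5 times for a count. In WT DMSO, WT talazoparib, Tdg KO DMSO and Tdg KO talazoparib the genome held 4.85 to 13.5 times, and the other long genes 2.45 to 5.10 times, the members' peaks per Mb under the filters tried. Leaving out flanks, the X chromosome or peaks near another gene start, asking for the peak centre inside the window, and start windows of 1 or 10 kb moved none.

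With at least 3 input tags, peaks per Mb were 0.561 in WT DMSO, 0.171 in WT talazoparib, 0.610 in Tdg KO DMSO and 0.756 in Tdg KO talazoparib, and median Normalized Tag Counts 6.15, 18.3, 12.7 and 7.45. Genes with a peak were 6 in WT talazoparib and 14 in Tdg KO DMSO, shares of the list 0.115% and 0.132%, start shares 47.8% in WT DMSO and 57.1% in WT talazoparib, and 5 genes and 5 regions were in all 4 lists. With equal numbers of peaks, WT DMSO, Tdg KO DMSO and Tdg KO talazoparib had 0.463, 0.512 and 0.610 peaks per Mb and medians of 7.01, 12.7 and 7.98. Tdg KO DMSO had 12 genes with a peak and 0.135% of the list, start shares were 52.6% (WT DMSO) and 40.0% (Tdg KO talazoparib), and 7 genes were in all 4 lists. With a fold of at least 6 these 3 lists had 0.390, 0.975 and 0.366 per Mb, 12 (WT DMSO) and 11 (Tdg KO talazoparib) genes had a peak, the WT talazoparib share was 0.320%, the Tdg KO talazoparib start share 13.3%, the WT DMSO repeat share 6.25%, and 2 genes and 0 regions were in all 4 lists. For peaks whose IP density was 2 or more times the genome mean, WT DMSO had 0.415 per Mb, a median of 7.70, a start share of 58.8% and a repeat share of 5.88%. WT talazoparib then had 0.293 per Mb, a median of 7.67, 9 genes and 0.144% of the list, and 7 genes were in all 4 lists. With any annotated start, the start shares were 39.4% in Tdg KO DMSO and 44.0% in Tdg KO talazoparib. With 10 repeat units, chosen after the data were seen, repeat shares were 4.76% in WT DMSO and 6.00% in Tdg KO talazoparib. Fewer peaks enter under each filter, and the cause of the shifts was not tested.

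No paired analysis was possible because each table holds 1 pooled value per peak and condition. Leaving out single replicates was not run for the same reason. Low input counts limit body peaks most.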
